A study of Mus musculus with 12 samples.

Results

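The genes described here encode components of epithelial cell junctions, together with Aqp3, a membrane channel for water and glycerol. The list named 10 genes, and 9 of them (Cdh1, Cldn3, Cldn4, Cldn6, Cldn7, Ocln, Tjp1, Crb3 and Aqp3) had a probe set carrying their symbol alone, among 17622 genes tested. Each of the 9 had exactly 1 such probe set, and all 9 passed the filter on dim probe sets. The only probe set that names Cdh2, the neural cadherin, also names a second locus, so Cdh2 fell outside the rule and is given no values. The list was put together with earlier results of these arrays in view: Aqp3 and Cldn4 had come to notice by their rise in Bmpr1a-/- cells in mixed culture. For that comparison, and for its difference from the same comparison in wild-type cells, in which Aqp3 and Cldn4 were chosen by their measured log2 difference, all 9 genes are therefore described with no test, and Aqp3 and Cldn4 are described with no test in the comparisons of genotypes as well.

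RNA of mouse embryonic stem cells (ESC) was hybridised to 12 Affymetrix gene arrays, whose probes are spread over the exons of each gene. The 4 groups of 3 arrays were wild-type ESC and Bmpr1a-/- ESC, each taken from mixed or from separate culture after 3 days in N2B27, a serum-free medium. The Bmpr1a-/- cells lacked a type I receptor for bone morphogenetic proteins (BMP) and carried green fluorescent protein (GFP), and the wild-type cells were unmarked. Mixed cultures started from equal parts of both and were split by sorting on GFP before RNA was taken; the sources used here do not say whether separate cultures were sorted too. The file headers name 1 line per genotype, so genotype, line and GFP mark cannot be told apart, and mixed culture cannot be told apart from sorting if only mixed cells were sorted. The file headers call replicates 1 to 3 experiments, but the labels do not say whether the 3 replicates of a group were independent cultures. The p-values therefore rest on the spread between these samples, which may be technical.

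Tight junctions seal the space between neighbouring epithelial cells near their apical surface. Claudins (Cldn genes) are the membrane proteins that form the seal and set which ions pass, occludin (Ocln) is a further membrane protein of the strand, and Tjp1 (ZO-1) is the scaffold that links the strand to actin. Below them lie adherens junctions, held by E-cadherin (Cdh1), which ESC and the epiblast of the early embryo express strongly. Crb3 is a small transmembrane protein of the Crumbs complex that marks the apical side. Aqp3 belongs to the aquaglyceroporins and lies in the basolateral membrane of many epithelia.

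The probe set of Bmpr1a gave a mean signal of 524 ± 27 in wild-type mixed, 549 ± 33.8 in wild-type separate, 370 ± 9.96 in Bmpr1a-/- mixed and 434 ± 25 in Bmpr1a-/- separate cells (SD, n = 3). All 6 Bmpr1a-/- arrays lay below all 6 wild-type arrays, but signal remained, and the sources used here do not say which part was deleted or whether the probes lie in it. Array medians lay between 51.6 and 54.3, and arrays correlated between 0.9799 and 0.9981 across probe sets. The ESC markers that had their own probe set (9 of 10) had a summed signal of 5399 to 6793 on wild-type arrays and 9503 to 11062 on Bmpr1a-/- arrays. Dppa5a had the widest gap, with means of 344 and 468 in wild-type and 2665 and 2278 in Bmpr1a-/- cells (mixed and separate). Lin28a went the other way, at 917 and 998 in wild-type and 746 and 792 in Bmpr1a-/- cells. By sign alone, 8 of these markers were higher and 1 lower in Bmpr1a-/- cells in separate culture, and 7 higher and 2 lower in mixed culture. Pou5f1 (Oct4), the defining pluripotency factor, was present in every group, at a mean of 1780 in wild-type separate, 2211 in wild-type mixed, 2994 in Bmpr1a-/- separate and 2566 in Bmpr1a-/- mixed cells. The 12 primitive endoderm markers summed to 1438 to 1707 on wild-type and 1160 to 1276 on Bmpr1a-/- arrays, with no overlap. Sparc had the highest signal of the 12, with means of 930 and 949 in wild-type and 633 and 628 in Bmpr1a-/- cells (mixed and separate). Gata4 went the other way, at 51.0 and 58.8 in wild-type and 68.1 and 68.2 in Bmpr1a-/- cells. By sign alone, 9 were lower and 3 higher in Bmpr1a-/- cells in separate culture, and 8 lower and 4 higher in mixed culture. The 10 neural markers summed to 1077 to 1343 in wild-type mixed and 939 to 986 in Bmpr1a-/- mixed cells, and overlapped in separate culture (1039 to 1301 and 1011 to 1057). The sums of trophectoderm (1492 to 1962 over all arrays) and surface ectoderm markers (412 to 524) overlapped between genotypes in both kinds of culture. Mesenchyme sums overlapped in mixed culture (1418 to 1757 in wild-type and 1455 to 1571 in Bmpr1a-/- cells). In separate culture they did not overlap, at 1583 to 1811 in wild-type and 1366 to 1539 in Bmpr1a-/- cells. All 8 mesenchyme markers tested were lower in Bmpr1a-/- cells there by sign, and 2 passed the threshold, beside 6.30% lower over all genes. The part of these marker differences in the genotype results below was not tested. In bulk RNA, fewer cells expressing a gene and less RNA per cell cannot be told apart.

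Aqp3 had the widest range of group means among the 9 genes. Its signal was 72.2, 84.5 and 73.2 on the wild-type mixed arrays and 87.7, 65.2 and 78.5 on the wild-type separate arrays. It was 227, 143 and 201 on the Bmpr1a-/- separate arrays and 487, 358 and 425 on the Bmpr1a-/- mixed arrays. The arrays of the Bmpr1a-/- mixed group lay above those of the Bmpr1a-/- separate group, which in turn lay above all 6 wild-type arrays, while both wild-type groups overlapped. Means were 423 ± 64.3, 190 ± 43.2, 77.2 ± 11.3 and 76.6 ± 6.82 in Bmpr1a-/- mixed, Bmpr1a-/- separate, wild-type separate and wild-type mixed cells (SD, n = 3). Described without a test, Bmpr1a-/- cells exceeded wild-type cells 2.44-fold in separate culture (log2 difference 1.29, SE 0.17) and 5.49-fold in mixed culture (2.46, SE 0.17). Within Bmpr1a-/- cells, mixed culture exceeded separate culture 2.25-fold (log2 difference 1.17, SE 0.17). In wild-type cells, which were tested, the log2 difference between mixed and separate culture was 0.00 (SE 0.17, 95% interval -0.36 to 0.35, adjusted p = 1).

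Cldn4, a claudin widely used as a marker of simple epithelia, stood apart in 1 group. Its signal was 1772, 1721 and 1895 on the Bmpr1a-/- mixed arrays and 1049, 614 and 1200 on the Bmpr1a-/- separate arrays. It was 664, 716 and 774 on the wild-type mixed arrays and 994, 811 and 768 on the wild-type separate arrays. Every Bmpr1a-/- mixed array exceeded the other 9 arrays, and the other groups overlapped with their neighbours in the order Bmpr1a-/- separate, wild-type separate, wild-type mixed. Unlike Aqp3, Cldn4 had no gap between the genotypes in separate culture, where means were 955 ± 304 in Bmpr1a-/- and 858 ± 120 in wild-type cells (SD, n = 3; log2 difference 0.11, SE 0.19, no test). In mixed culture the means were 1796 ± 89.3 in Bmpr1a-/- and 718 ± 55 in wild-type cells (SD, n = 3), a 2.5-fold difference (log2 1.32, SE 0.19, no test). Within Bmpr1a-/- cells, mixed culture exceeded separate culture 1.95-fold (log2 difference 0.97, SE 0.19, no test). The low Bmpr1a-/- separate replicate 2 carried part of this: without it the difference within Bmpr1a-/- cells was 0.677 and that between genotypes in separate culture 0.397. In wild-type cells the difference between mixed and separate culture was -0.25 (SE 0.19, 95% interval -0.66 to 0.16, adjusted p = 1).

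**Figure D1:**
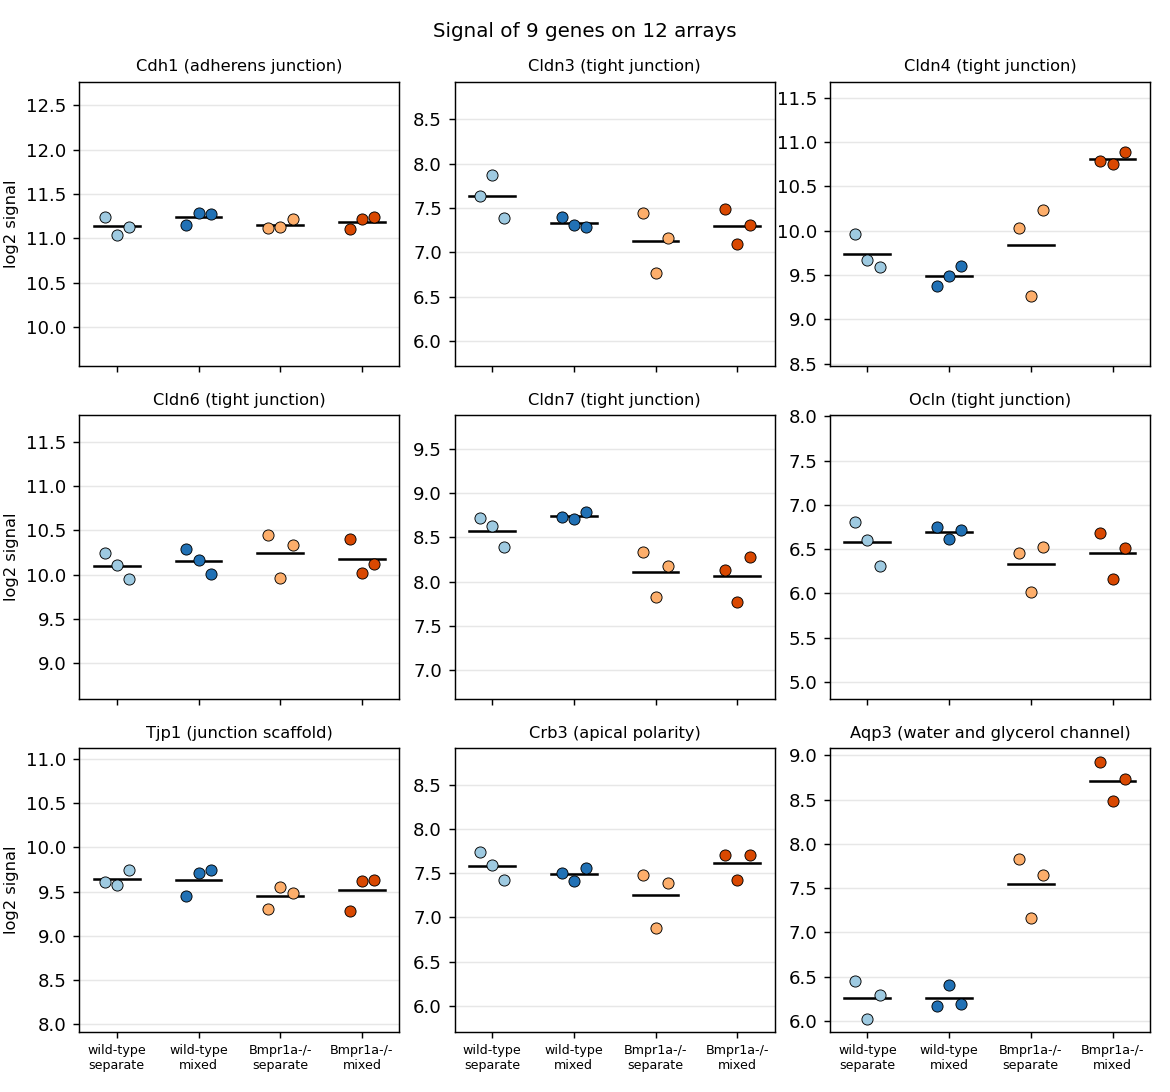
Log2 signal of the 9 genes on 12 arrays (vertical axis, log2 of linear RMA signal; every panel spans the same log2 width). Each point is 1 array, horizontal bars are group means, and points within a group stand in the order of replicates 1 to 3. Aqp3 steps up from wild-type to Bmpr1a-/- separate to Bmpr1a-/- mixed cells, Cldn4 stands apart in Bmpr1a-/- mixed cells (1721 to 1895 in linear signal), and Cldn7 is lower in both Bmpr1a-/- groups.

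The sequence just before the start of Aqp3 and Cldn4 is shown because these genes were both highest in Bmpr1a-/- mixed cells. It is set beside that of Cldn3, the neighbour of Cldn4, and of Cldn7, which lay the other way. The 250 bases before the annotated start, from RefSeq on GRCm38.p6, were available for 8 of the 9 genes (11 starts). They were searched on both strands for CAGGTG, which reads CACCTG on the other strand and is the E-box letters bound by Snail and Zeb repressors of Cdh1, and for AACCGGTT, a motif of grainyhead-like factors such as Grhl2. The windows are chr4:41098184-41098433 (minus strand) for Aqp3, chr5:134946935-134947184 (minus strand) for Cldn4, chr5:134985964-134986213 (plus strand) for Cldn3 and chr11:69965171-69965420 (plus strand) for the downstream one of 2 starts of Cldn7. They are written 5′ to 3′ on the strand of the gene, ending at the base before the start, with CAGGTG or CACCTG in capitals:
Aqp3: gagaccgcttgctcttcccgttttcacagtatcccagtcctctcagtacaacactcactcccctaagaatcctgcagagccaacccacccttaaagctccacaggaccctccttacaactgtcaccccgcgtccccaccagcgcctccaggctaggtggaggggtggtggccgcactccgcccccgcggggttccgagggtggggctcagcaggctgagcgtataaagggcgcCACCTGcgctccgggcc
Cldn4: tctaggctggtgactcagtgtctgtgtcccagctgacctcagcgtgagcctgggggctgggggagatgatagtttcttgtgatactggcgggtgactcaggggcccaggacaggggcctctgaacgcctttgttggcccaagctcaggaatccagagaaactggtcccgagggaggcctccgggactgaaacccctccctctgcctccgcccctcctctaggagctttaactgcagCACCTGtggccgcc
Cldn3: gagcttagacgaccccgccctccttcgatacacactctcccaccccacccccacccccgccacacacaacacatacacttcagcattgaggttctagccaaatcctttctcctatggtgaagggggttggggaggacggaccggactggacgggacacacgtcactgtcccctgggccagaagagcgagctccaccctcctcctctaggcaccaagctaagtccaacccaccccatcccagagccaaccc
Cldn7: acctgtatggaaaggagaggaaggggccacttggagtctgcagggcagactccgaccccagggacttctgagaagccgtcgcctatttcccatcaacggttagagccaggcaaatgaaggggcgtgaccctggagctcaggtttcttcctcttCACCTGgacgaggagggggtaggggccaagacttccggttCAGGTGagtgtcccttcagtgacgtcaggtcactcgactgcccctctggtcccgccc

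The motif CAGGTG began 17 bases before the start of Aqp3 and 14 bases before that of Cldn4, in the CACCTG orientation in both. The printed Cldn7 window held it 97 and 57 bases before the start. The window of the upstream start of Cldn7 and the Cldn3 window did not hold it. In all, 6 of the 8 genes had it in at least 1 window, the others being Cldn6, Ocln and Crb3, and Tjp1 and Cldn3 had none. Of 32851 promoters of the table, 17.2% held it in the same window, or 20.3% of the 16457 with a GC content of 50 to 70%. Of 27025 genes, 19.4% held it in any window. The windows of these 8 genes had a GC content of 51.2 to 69.2%, against a median of 52.4% over all promoters. AACCGGTT was in none of the 11 windows and in 0.1% of all promoters. These are matches of letters only, and CAGGTG was present both in Cldn7, which passed between genotypes in mixed culture, and in Cldn6, Ocln and Crb3, which did not.

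Cldn3 and Cldn4 lie next to each other on chromosome 5 with no protein-coding gene between them, and their values did not run together. The signal of Cldn3 was 169, 159 and 156 in wild-type mixed, 199, 234 and 168 in wild-type separate, 180, 137 and 159 in Bmpr1a-/- mixed, and 174, 109 and 143 in Bmpr1a-/- separate cells. Groups next to each other in the order of means overlapped throughout. In separate culture Cldn3 was 0.701 times the wild-type level in Bmpr1a-/- cells (log2 difference -0.51, SE 0.16), which did not pass the threshold (limma, adjusted p = 0.056), and its arrays overlapped. Without Bmpr1a-/- separate replicate 2 it was -0.337. This sits at the threshold: adjusted p ran from 0.025 to 0.12 under other settings and from 0.016 to 0.22 with 1 array left out. In mixed culture the log2 difference between genotypes was -0.03 (SE 0.16, 95% interval -0.37 to 0.32, adjusted p = 0.95). On the far side of Cldn4, Mettl27 differed by 0.36 and Cldn13 by 0.01 between mixed and separate Bmpr1a-/- cells on the log2 scale, where Cldn4 differed by 0.97. Aqp7, the aquaglyceroporin gene beside Aqp3 on chromosome 4, had log2 differences of -0.02 within Bmpr1a-/- cells and 0.01 between genotypes in mixed culture, where Aqp3 had 1.17 and 2.46.

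Cldn7, a claudin found along the lateral membrane as well as at tight junctions, was lower in Bmpr1a-/- cells. Its signal was 425, 419 and 441 in wild-type mixed and 280, 218 and 310 in Bmpr1a-/- mixed cells. It was 420, 395 and 335 in wild-type separate and 322, 226 and 290 in Bmpr1a-/- separate cells. All 6 wild-type arrays lay above all 6 Bmpr1a-/- arrays; in mixed culture, arrays of 32.7% of all genes did not overlap. The kinds of culture overlapped within each genotype. In mixed culture Bmpr1a-/- cells had 0.622 times the wild-type level (log2 difference -0.68, SE 0.14, 95% interval -0.99 to -0.38, limma adjusted p = 0.0055), a fall that passed the threshold. It stayed past the threshold with each single array left out (adjusted p 0.0025 to 0.027) and under the other settings (0.0015 to 0.012). In separate culture the level was 0.725 times that of wild-type cells (log2 difference -0.46, SE 0.14, adjusted p = 0.055), with no overlap of arrays but short of the threshold. That value also sat at the threshold, with adjusted p from 0.02 to 0.087 under other settings and from 0.031 to 0.22 with 1 array left out. The 2 genotype differences were not shown to differ; their difference was -0.22 (SE 0.20, no test). The protein-coding neighbours of Cldn7 on chromosome 11 differed from each other in mixed culture, given as a description: Elp5, a subunit of the Elongator complex, had log2 differences of -0.47 in separate and -0.63 in mixed culture. Slc2a4, a glucose transporter on the other side, had -0.45 in separate and 0.02 in mixed culture.

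Of the 7 junction genes tested between genotypes, Cldn7 alone passed in mixed culture, where 16.5% of all genes passed, and none passed in separate culture, where 11.2% of all genes passed. Cdh1, Cldn6, Ocln, Tjp1 and Crb3 did not pass in either.

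Cdh1 had the steadiest level among the 9 genes. Its signal was 2282, 2501 and 2480 in wild-type mixed, 2415, 2098 and 2245 in wild-type separate, 2209, 2380 and 2412 in Bmpr1a-/- mixed, and 2215, 2239 and 2387 in Bmpr1a-/- separate cells. All 4 groups overlapped. The spread within groups was 0.077 on the log2 scale (SD), lower than that of most genes (19.5% were lower still, median 0.114). The log2 difference between genotypes was 0.02 in separate culture (SE 0.07, 95% interval -0.14 to 0.18, adjusted p = 0.93) and -0.05 in mixed culture (SE 0.07, 95% interval -0.21 to 0.11, adjusted p = 0.74). These intervals leave room for differences of up to about that size, which the arrays could not resolve.

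Among the other tight junction genes, Cldn6, a claudin of early embryonic epithelia and pluripotent cells, had a signal of 1250, 1153 and 1032 in wild-type mixed, 1213, 1106 and 993 in wild-type separate, 1353, 1035 and 1112 in Bmpr1a-/- mixed, and 1392, 998 and 1296 in Bmpr1a-/- separate cells. The groups overlapped, and the genotypes differed on the log2 scale by 0.15 in separate culture (SE 0.13, adjusted p = 0.59) and by 0.02 in mixed culture (SE 0.13, adjusted p = 0.96). Ocln ranged from 79.4 to 112 over the 6 wild-type arrays and from 64.6 to 103 over the 6 Bmpr1a-/- arrays, with genotype differences of -0.25 (SE 0.16, adjusted p = 0.40) and -0.24 (SE 0.16, adjusted p = 0.39) in separate and mixed culture. Without replicate 2 of the Bmpr1a-/- group compared, these were -0.089 and -0.094. Tjp1 ranged from 701 to 861 over the wild-type and from 624 to 796 over the Bmpr1a-/- arrays. Its 3 Bmpr1a-/- separate arrays lay below the 3 wild-type separate arrays, as did arrays of 24.5% of all genes in 1 direction or the other. The difference there was -0.19 (SE 0.11, adjusted p = 0.33), and in mixed culture it was -0.12 (SE 0.11, adjusted p = 0.58) with overlapping arrays. Without replicate 1 of the Bmpr1a-/- group compared, these were -0.121 and -0.006.

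Crb3 had a signal of 181, 170 and 188 in wild-type mixed, 213, 193 and 171 in wild-type separate, 208, 172 and 209 in Bmpr1a-/- mixed, and 179, 118 and 167 in Bmpr1a-/- separate cells. The lowest array was Bmpr1a-/- separate replicate 2, and neighbouring groups in the order of means overlapped. The genotypes differed by -0.33 in separate culture (SE 0.14, adjusted p = 0.17) and by 0.13 in mixed culture (SE 0.14, adjusted p = 0.67) on the log2 scale. Between mixed and separate Bmpr1a-/- cells the difference was 0.36 (SE 0.14, no test). Without that array this was 0.177 and the genotype difference in separate culture was -0.145.

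In wild-type cells, mixed culture was not distinguished from separate culture for any of the 9 genes. Log2 differences ran from -0.30 for Cldn3 (SE 0.16, 95% interval -0.65 to 0.04) to 0.17 for Cldn7 (SE 0.14, -0.14 to 0.48), and adjusted p was 1 for all 9 (limma). No gene of the 17622 passed in this comparison (0%), and 2.93% had an unadjusted p under 0.05. The groups overlapped for all 9 genes, where 6.99% of all genes did not overlap. In Bmpr1a-/- cells the same comparison chose Aqp3 and Cldn4, so their values there are no finding. Their arrays, 2 of 9 genes, did not overlap between mixed and separate culture, as for 18.0% of all genes. For the other 7 the difference lay between -0.07 for Cldn6 and 0.36 for Crb3, with overlapping arrays. The change in Bmpr1a-/- cells exceeded that in wild-type cells by 1.17 for Aqp3 (SE 0.23), 1.22 for Cldn4 (SE 0.27), 0.49 for Cldn3 (SE 0.22) and 0.46 for Crb3 (SE 0.20) on the log2 scale, all with no test; for the other 5 this difference ran from -0.22 to 0.07. Without Bmpr1a-/- separate replicate 2 it was 0.309 for Cldn3 and 0.271 for Crb3.

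**Figure D2:**
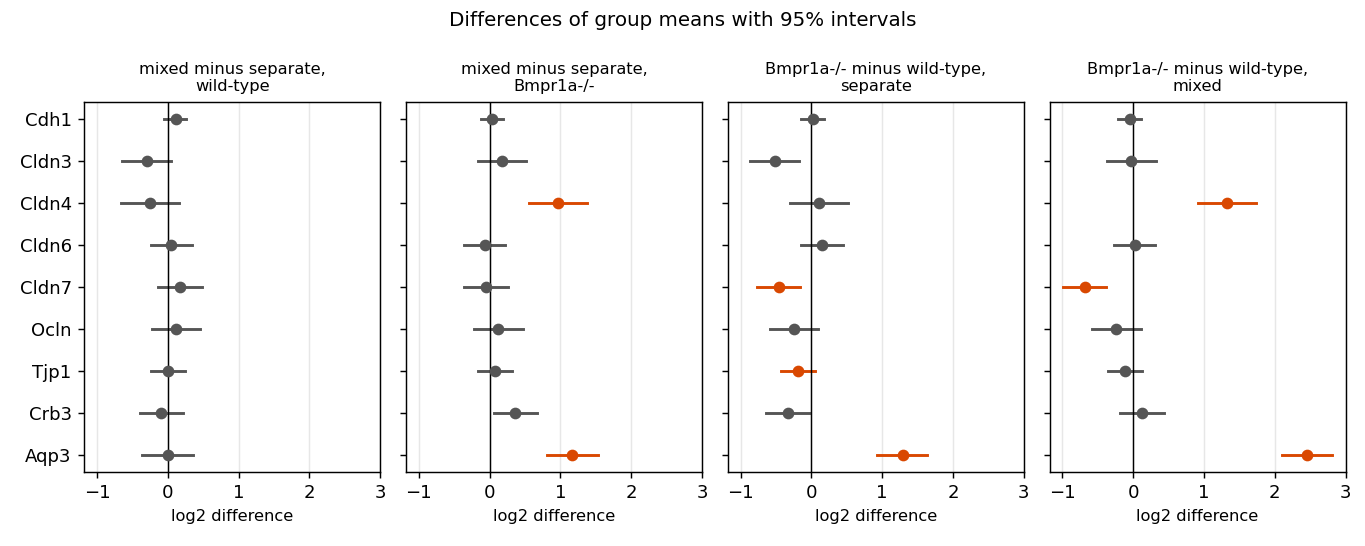
Log2 differences of group means (horizontal axis) for the 9 genes in 4 comparisons, with 95% intervals from the limma fit to 12 arrays. Orange marks genes whose 3 arrays did not overlap between the groups compared; grey marks overlap. Differences of Aqp3 and Cldn4 beyond the first panel, and all of the second panel, are a description; the difference of Cldn7 in mixed culture (-0.68) passed the threshold.

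Several of the 9 genes were lowest on the same replicate of a group. The share of all genes lowest on each array was not computed. A trait of these genes and a shift of a whole array are therefore not told apart. In Bmpr1a-/- mixed cells replicate 2 was the lowest array for 7 of 9 genes, and in Bmpr1a-/- separate cells it was the lowest for the same 7 (Cldn3, Cldn4, Cldn6, Cldn7, Ocln, Crb3 and Aqp3). Cdh1 and Tjp1 were lowest on replicate 1 in both of these groups. In wild-type separate cells replicate 3 was the lowest for 6 of 9 genes. The spread within groups was larger than that of 88.2% of all genes or more for these 7 genes (SD 0.19 to 0.281 on the log2 scale).

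The genes whose levels followed Aqp3 most closely were taken as those with the smallest root mean square difference of centred log2 signal over the 12 arrays. They were Gpa33, a surface antigen of intestinal epithelium (0.213), LOC625360 (0.281), Triml2 (0.292), LOC620963 (0.302) and LOC100043188 (0.32); Aqp3 itself varied by 1.042 about its mean. Gpa33 had log2 differences of 1.50 and 2.27 between genotypes in separate and mixed culture, beside 1.29 and 2.46 for Aqp3. Nearest to Cldn4 were Gstt2, a glutathione transferase (0.179), Hexa, a subunit of a lysosomal enzyme (0.18), Apoe, a lipid carrier (0.19), and Fabp3, a fatty acid carrier (0.199), against 0.553 for Cldn4 about its mean. None of these 4 is a junction gene, and Cldn4 ranked 88 among the genes nearest to Aqp3. Nearest to Cdh1 by name was Ctnnd1, the p120 catenin that binds the cadherin tail (0.041), but Cdh1 varied by only 0.074 about its mean, so many steady genes lay near it; Lrrc71 (0.042), Rbpms (0.043), LOC384358 (0.044) and a locus with no symbol were the others. These are descriptions over 12 arrays that share their groups and replicates. The nearest genes were picked by likeness on these same arrays, so sharing a pattern with Aqp3, Cldn4 or Cdh1 follows from the choice.

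**Figure D3:**
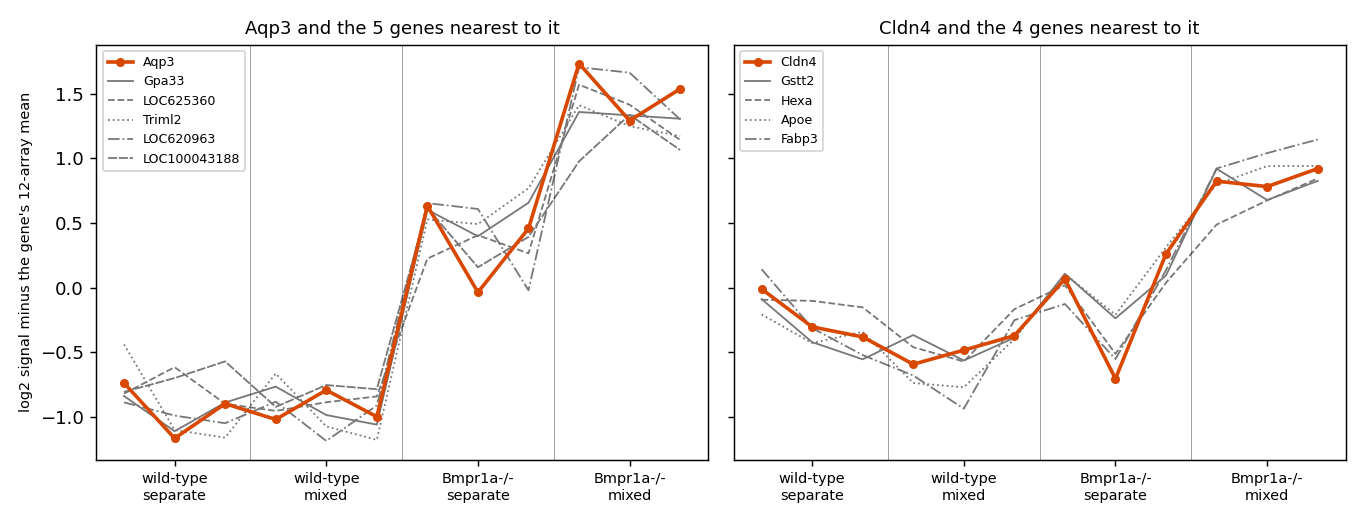
Log2 signal minus each gene's mean over the 12 arrays (vertical axis) for Aqp3 and Cldn4 (orange, thick) and the genes nearest to each (grey, 5 for Aqp3 and 4 for Cldn4). Arrays stand in 4 groups in the order of replicates 1 to 3, and lines only join the values of a gene. The genes near Aqp3 step up in both Bmpr1a-/- groups, and those near Cldn4 (Gstt2, Hexa, Apoe and Fabp3) are highest in Bmpr1a-/- mixed cells. They were picked for likeness on these same arrays, so the shared pattern follows from the choice.

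Related genes were taken from lists that leave out the 9 genes. The counts of the claudins and aquaporins are read against the shares of all genes that passed, 11.2% in separate and 16.5% in mixed culture. Of 17 other claudins tested, none passed between genotypes in separate culture and 1, Cldn12, passed in mixed culture. It was lower in Bmpr1a-/- cells with a log2 difference of -0.51 (SE 0.15, adjusted p = 0.032). Cldn1, of skin and other tight epithelia, differed by -0.26 (SE 0.11, adjusted p = 0.12) there. Of 10 other aquaporins, Aqp11, an intracellular aquaporin, alone passed, lower in Bmpr1a-/- cells at -0.29 in separate culture (SE 0.08, adjusted p = 0.038) and -0.31 in mixed culture (SE 0.08, adjusted p = 0.02). The medians of both lists were between -0.06 and 0.01 in both genotype comparisons, beside -0.02 over all genes.

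Of 21 other tight junction genes, 2 were higher and 3 lower in Bmpr1a-/- cells in separate culture (median -0.02), and 1 was higher and 6 lower in mixed culture (median -0.07). Over all genes 4.94% were higher and 6.30% lower in separate culture, and 6.36% were higher and 10.1% lower in mixed culture. The adhesion molecule Jam3 was lower in Bmpr1a-/- cells on the log2 scale, by -0.76 in separate culture (SE 0.15, adjusted p = 0.0079) and by -0.86 in mixed culture (SE 0.15, adjusted p = 0.0022). The scaffold Mpdz fell by 0.51 (SE 0.08, adjusted p = 0.0024) and by 0.73 (SE 0.08, adjusted p = 0.00012), while Patj, a scaffold of the Crumbs complex, rose by 0.30 in separate culture (SE 0.08, adjusted p = 0.032). Marveld2 (tricellulin), which seals corners where cells meet and lies next to Ocln on chromosome 13, fell by 0.53 in mixed culture (SE 0.09, adjusted p = 0.0018), where Ocln did not pass. Jam2 rose by 0.47 (SE 0.09, adjusted p = 0.0029) in mixed culture. The tight junction genes that passed thus ran in both directions.

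Of 22 other adherens junction genes, none passed between genotypes in separate culture, and 1 was higher and 2 lower in mixed culture. Over all genes 11.2% passed in separate culture, and 6.36% were higher and 10.1% lower in mixed culture. Cdh3 (P-cadherin), the neighbour of Cdh1 on chromosome 8, was higher in Bmpr1a-/- cells by 0.44 (log2, SE 0.12, adjusted p = 0.02) in mixed culture, with means of 444 ± 53.7 in Bmpr1a-/- and 326 ± 33.7 in wild-type cells (SD, n = 3). In separate culture it differed by 0.36 (SE 0.12, adjusted p = 0.067). Nectin1, which pairs with nectins on the next cell, fell by 0.77 (SE 0.17, adjusted p = 0.0087), and vinculin (Vcl), which ties catenins to actin, fell by 0.42 (SE 0.10, adjusted p = 0.011). Afdn (afadin), the actin link of nectins, was the only gene of the related lists to pass between mixed and separate Bmpr1a-/- cells, where 1.58% of all genes passed (4.98% with the replicate number as a block). It was higher in mixed culture by 0.43 (SE 0.09, adjusted p = 0.04). With the block 8 list genes passed in that comparison, and with 1 array left out between 0 and 4 did.

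Genes of other contacts are read against the same shares of all genes (4.94% higher and 6.30% lower in separate culture, 6.36% and 10.1% in mixed culture). Of 12 desmosome genes, 1 was higher and 1 lower in separate culture, and 1 was higher and 2 lower in mixed culture. Dsc2 was lower in Bmpr1a-/- cells in both kinds of culture (-0.54, SE 0.11, adjusted p = 0.0076 in separate; -0.47, SE 0.11, adjusted p = 0.0093 in mixed). Perp was higher in separate culture by 0.44 (SE 0.11, adjusted p = 0.019), and desmoplakin (Dsp) was higher in mixed culture by 0.53 (SE 0.16, adjusted p = 0.037), where Pkp4, a plaque protein, was lower at -0.34 (SE 0.07, adjusted p = 0.0044). Of 15 gap junction genes, none was higher and 2 were lower in separate culture, and 1 was higher and 2 lower in mixed culture. Among them Gja1 (connexin of ESC and heart) fell by 0.51 in both kinds of culture (SE 0.10, adjusted p = 0.008 and 0.0048). Of 13 polarity genes of the Crumbs and Par groups, 3 were lower and none higher in separate culture (median -0.21), and 2 were lower and none higher in mixed culture (median -0.16). Llgl1, a basolateral polarity protein, fell by 0.62 (SE 0.12, adjusted p = 0.0054) and by 0.83 (SE 0.12, adjusted p = 0.00048), and Pard6a, an apical adaptor, fell by 0.44 (SE 0.09, adjusted p = 0.0082) and by 0.30 (SE 0.09, adjusted p = 0.04).

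The list of other epithelial genes held genes of the cell surface, keratins and regulators. Of its 24 genes, 9 were higher and 1 lower in separate culture (median 0.12), and 7 were higher and none lower in mixed culture (median 0.14). The lower one was the keratin Krt18, at -0.44 in separate culture, and it did not pass in mixed culture (-0.05). The other 14 genes in separate and 17 in mixed culture did not pass. By sign alone, 14 were higher and 10 lower in separate culture, and 19 higher and 5 lower in mixed culture. Over all genes 4.94% were higher and 6.30% lower in separate culture and 6.36% higher and 10.1% lower in mixed culture, with medians of -0.02. The splicing regulator Esrp2 rose by 0.93 in separate culture (SE 0.14, adjusted p = 0.0013) and by 0.91 in mixed culture (SE 0.14, adjusted p = 0.0007). The transcription factor Grhl2, an activator of Cdh1 and Cldn4 in other epithelia, had means of 187 ± 34.9 in Bmpr1a-/- and 106 ± 10.6 in wild-type cells in separate culture (SD, n = 3; log2 difference 0.81, SE 0.11, adjusted p = 0.001). In mixed culture Grhl2 had means of 154 ± 9.11 in Bmpr1a-/- and 119 ± 6.09 in wild-type cells (SD, n = 3). That log2 difference of 0.37 also passed. Between mixed and separate Bmpr1a-/- cells Grhl2 differed by -0.27, which did not pass. Klf5 rose by 0.74 (SE 0.09, adjusted p = 0.00044) and 0.78 (SE 0.09, adjusted p = 0.00013), and Elf3 by 0.74 (SE 0.11, adjusted p = 0.0017) and 1.02 (SE 0.11, adjusted p = 0.0001). Tfap2c, with the largest difference in mixed culture, rose by 1.23 (SE 0.15, adjusted p = 0.00016). Klf5 and Tfap2c are also expressed in pluripotent and trophectoderm cells. Of 11 trophectoderm markers, some of which are also in the epithelial list, 3 were higher and 1 lower in Bmpr1a-/- cells in separate culture, and 3 were higher and none lower in mixed culture.

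Of 19 genes of mesenchymal transition, 3 were higher and 3 lower in separate culture, and 2 were higher and 4 lower in mixed culture, beside 4.94% higher and 6.30% lower, and 6.36% higher and 10.1% lower, over all genes. The Cdh1 repressor Zeb2 fell by 0.77 (SE 0.18, adjusted p = 0.015) and by 0.58 (SE 0.18, adjusted p = 0.04), while Snai1, another repressor of Cdh1, was higher by 0.41 in mixed culture (SE 0.11, adjusted p = 0.024). Fibronectin (Fn1) was higher by 0.56 in separate culture (SE 0.15, adjusted p = 0.033) and by 1.33 in mixed culture (SE 0.15, adjusted p = 0.00012). No gene of any of these lists passed in wild-type cells between mixed and separate culture, and none passed for the difference between the co-culture changes of the genotypes, where 0.670% of all genes passed.

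**Figure D4:**
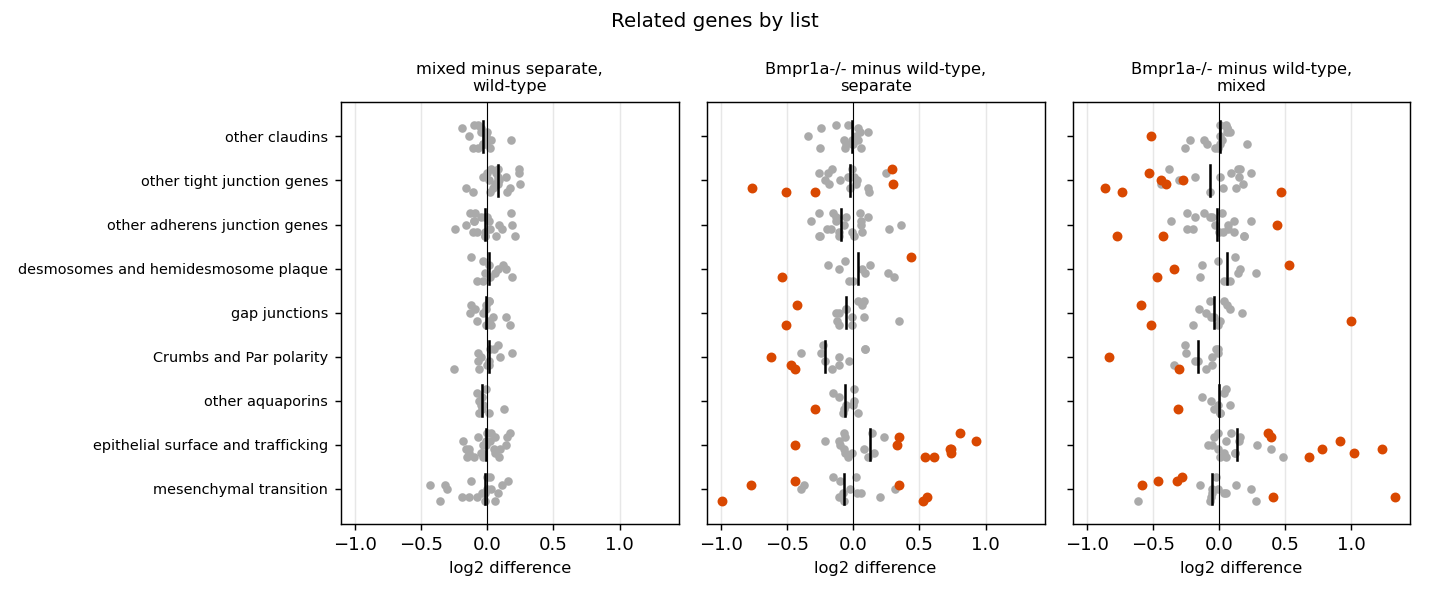
Log2 differences (horizontal axis) of the genes of 9 related lists in 3 comparisons; each point is a gene, orange where it passed an adjusted p of 0.05 over all 17622 genes, and black bars are list medians. No list gene passed in wild-type cells between kinds of culture, and in the epithelial list 9 genes were higher and 1 lower in Bmpr1a-/- cells in separate culture.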

How the data were processed

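The authors normalized the arrays with RMA (background correction, quantile normalization and summary per probe set) in Affymetrix Expression Console 1.2, per the submitters' processing notes and the file headers. The deposited series table and 1 workbook sheet gave log2 values from which a median over the authors' samples had been subtracted for each probe set, per the file headers. Another deposited sheet held linear intensity, whose log2 was the series table plus 1 offset for each probe set (to within 2.18e-06); that log2 was used here. The sources used here give no genome build.

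Of 28815 probe sets, 22700 had 1 gene symbol; these were looked up in a RefSeq table of GRCm38.p6 genes (16822 current, 3645 updated, 2233 kept). Dim probe sets, below the 20th percentile of mean signal (25.4), were left out, and the probe set with the highest mean stood for each gene, which left 17622 genes. A limma 3.58.1 model of group means (R 4.3.3) used all 12 arrays (8 residual degrees of freedom), and two-sided p-values were adjusted by Benjamini-Hochberg over all genes (threshold 0.05). Values are means ± SD of signal (n = 3) and log2 differences with SE; the number of arrays limits their precision. Signals of different genes were not compared. The fit was tested on simulated data.

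The members, the lists of related genes and markers, and the tests were chosen with earlier results of these data known; lists were written from general knowledge. The text names the listed genes, Bmpr1a, from each list the 2 largest differences per comparison and up to 4 genes past the threshold, and the 5 genes nearest to Aqp3, Cldn4 and Cdh1; not every gene this rule allows is printed. Loci with Gm or Rik names and large repeated families were left out of the nearest genes, while loci with LOC names stayed in. Genes outside this rule (Mettl27, Cldn13, Aqp7, Elp5 and Slc2a4) are named as chromosomal neighbours, and single markers to describe the cells. Protein sequences and a Cdh1 promoter were not used here, and a gene near Cldn4 and a gap junction gene are not reported here.

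The file headers call replicates 1 to 3 experiments. Deviations from group means of same-numbered arrays correlated at 0.39, 0.15 and 0.36 between the Bmpr1a-/- groups and at 0.64, 0.38 and 0.42 between the mixed groups, so these were taken as paired, but not between the wild-type groups (0.57, -0.10 and 0.14) or the separate groups (0.06, 0.05 and 0.34). All values and calls are from the model without a block unless the block is named; for paired groups the blocked value is printed where it changed a call or moved a count by over 1.5 times. Alternatives were no filter or a stricter one, a repeat of quantile normalization (the same values normalized again), median centring, the replicate block, an intensity trend with a robust prior, array weights, only the groups compared, and leaving out each array.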

Additional observations from a re-analysis of the deposited data

How the results depend on the processing

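No result changed direction past the threshold. With 1 array left out, Cldn7 in mixed culture kept its call, and the number of the 7 tested junction genes past the threshold in separate culture ran from 0 to 2 (2 without wild-type separate replicate 3 or without Bmpr1a-/- separate replicate 1, and 1 without Bmpr1a-/- mixed replicate 2 or 3). It was 2 (Cldn3 and Cldn7) with probe sets under the median left out, quantile normalization repeated, the replicate block, or an intensity trend with a robust prior, and 1 with array weights. The block in separate culture rests on shared numbers only. Genes past the threshold between mixed and separate Bmpr1a-/- cells numbered 278, against 877 with the replicate block, 451 with array weights, 46 with only the groups compared and 50 to 390 with 1 array left out (50, 66, 130 and 73 without Bmpr1a-/- mixed replicates 2 and 3 and separate replicates 1 and 2). For the interaction they numbered 118, against 386 with the block, 208 with array weights and 25 to 132 with 1 array left out. In separate culture the genotypes differed in 1981 genes, against 1170 with only the groups compared and 1083 to 1967 with 1 array left out (1106 without wild-type separate replicate 2, 1083 without Bmpr1a-/- separate replicate 2). In mixed culture they differed in 2905, and in 1850 to 3122 with 1 array left out (1850 without Bmpr1a-/- mixed replicate 2). Of the related lists, 1 gene passed within Bmpr1a-/- cells, against 0 with no filter or only the groups compared, 2 with the stricter filter or the trend, 4 with array weights, 8 with the block and 0 to 4 with 1 array left out. For the interaction it was 0, against 2 with the block and 0 to 1 with 1 array left out. In separate culture 29 list genes passed, against 18 with only the groups compared and 16 to 30 with 1 array left out (16 without wild-type or Bmpr1a-/- separate replicate 2), and in mixed culture 33, against 21 to 36 (21 without Bmpr1a-/- mixed replicate 2). Apart from the counts within Bmpr1a-/- cells, the interaction and Cldn3 and Cldn7 in separate culture, the block changed no call of the tested junction genes. The causes were not tested. No gene of the 9 had another probe set to try, and leave-one-out fits assume that the 2 remaining arrays vary like the other groups.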
